A study of Mus musculus with 96 samples.

Results

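mir-22 (MI0000570) is 1 microRNA hairpin of the 1187 in the count table of mouse liver, of which 1018 were above 0 in some library. It was taken by its hairpin ID and followed as CPM, the count scaled to the column total of its library, and as CPM after mir-192 was left out of that total, over all 24 groups. Small RNA was sequenced from the livers of 96 mice of the C57BL/6 strain, 1 library each. The mice were heterozygous knock-ins with 1 normal mouse Htt allele and 1 Htt allele holding human HTT exon 1 with 20 (Q20), 50 (Q50), 92 (Q92) or 140 (Q140) CAG repeats, or were wild-type (WT) littermates from the Q20 or the Q50 line. Htt encodes huntingtin, and long CAG repeats in the human gene cause Huntington's disease. Each of these 6 kinds of mice was sampled at 10 and at 6 months of age, with 4 males and 4 females per age. The controls were Q20 mice and WT mice of both lines, 24 at each age, and the mouse gene itself was entered as 7 repeats. No WT mice of the Q92 or the Q140 line are in the samples used here, so for these lines the genotype cannot be told apart from the line.

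MicroRNAs are cut from hairpin precursors, and 1 strand of the duplex is loaded onto an Argonaute protein, where its seed, bases 2 to 8, pairs with messenger RNAs and lowers their stability or translation. The 3p strand of mir-22 is the one usually called miR-22. It is found in many tissues, is known in mice for its part in the response of the heart to stress, and has been studied in liver in lipid and glucose metabolism. Described targets include Ppara, Sirt1, Hdac4 and Tet2, and overexpression of miR-22 has been studied in cell models of Huntington's disease. mir-192, the other hairpin followed here, is a microRNA of liver, gut and kidney epithelium.

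The hairpin and its products are shown because the counts were made per hairpin, so the 2 strands below cannot be told apart in any value that follows. In the first line the capitals mark the 5p and then the 3p product, and in the other lines the seed (RefSeq, GRCm38.p6, plus strand).
mir-22 hairpin: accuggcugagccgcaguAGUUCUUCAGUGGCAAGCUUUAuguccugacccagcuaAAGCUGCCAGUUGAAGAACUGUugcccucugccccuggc
mmu-miR-22-5p: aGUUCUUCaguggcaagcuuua
mmu-miR-22-3p: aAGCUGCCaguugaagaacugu
mmu-miR-192-5p: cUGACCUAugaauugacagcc
The hairpin of 95 nucleotides lies at chr11:75463716-75463810, with the 5p product at hairpin positions 19 to 40 and the 3p product at 57 to 78. GENCODE annotates this stretch as exon 2 of Mir22hg, a non-coding host gene at chr11:75461539-75466676, in 2 of its transcripts. The stretch also lies in exon 2 of a transcript of the protein-coding gene Tlcd2 that has no annotated reading frame. The hairpin starts 23 bases after the start of that exon, and the nearest other RefSeq hairpin, Mir3971, is 87619 bases away. RNAfold 2.7.2 folded the hairpin at 37 degrees with a minimum free energy of -41.9 kcal/mol and 36 base pairs, in which 19 of the 22 bases of the 3p product paired with the 5p product. Of 1679 mature mouse microRNAs in RefSeq, 0 others shared the seed of miR-22-3p and 0 others that of miR-22-5p. At bases 2 to 7 alone, mmu-miR-6935-3p and mmu-miR-7092-3p matched the 5p product. Neither mature sequence occurred whole in another of the 1005 RefSeq hairpins, and no other row of the table held the same counts in all libraries. The mir-22 count was whole in all 96 libraries.

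Library totals lay between 2195052 and 6662671 estimated counts, and the median was 5149568. At 10 months 4 libraries stood apart from the rest by their connectivity and were left out of the fitted tests. Their mir-22 levels were 214954 CPM in Q92 male replicate 2, 187764 CPM in Q92 female replicate 1, 252367 CPM in replicate 3 of the WT males of the Q20 line and 216751 CPM in replicate 3 of those of the Q50 line. They are kept in the levels below. The labels carry a lane tag, L5 to L8, which was a covariate within each age. Liver is a mixture of cells, and fewer cells of a type cannot be told apart from less RNA per cell. By the study's methods each library came from its own mouse, so p-values measure the spread between animals.

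mir-22 was a large share of all liver microRNA counts. It took 14.5% to 26.6% of a library, with a median of 21.3%, and from 512828 to 1627047 counts. The counting error of the share was small beside the spread between mice. In the lowest library, Q92 female replicate 2 at 6 months, the share was 14.48% with a 95% Wilson interval of 14.46% to 14.51%. In the highest, Q20 male replicate 1 at 10 months, it was 26.56% with an interval of 26.52% to 26.59%. These intervals cover counting error only, since copies made by amplification are not independent molecules. All shares and ranks here are of counts, and the share of molecules in the liver was not measured. Between mice of a group the coefficient of variation ran from 0.519% to 15.0%, with a median of 7.30%.

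On the FPKM scale, which divides by hairpin length, mir-22 was first or second of all hairpins in every one of the 96 libraries. It averaged 2238649 ± 254215 FPKM and mir-192 averaged 2390873 ± 246681 FPKM (SD, n = 96). Without the division by length the pair was nearly equal, with 212672 ± 24150 CPM for mir-22 and 212788 ± 21955 CPM for mir-192. The third hairpin, MI0000550, averaged 740266 ± 109140 FPKM. The ID of mir-192, MI0000551, is not paired with a name in the tables used here. It was read as mir-192 from its accession and its recovered length of 89 nucleotides, which is that of the RefSeq Mir192 hairpin and of no other hairpin above a mean of 1000 CPM.

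Which of the pair came first differed with age. mir-22 had the higher FPKM in 39 of 48 libraries at 10 months, against 2 of 48 at 6 months. By CPM, which is not divided by the length of the hairpin, it was first in 44 of 48 libraries at 10 months, against 10 of 48 at 6 months. The ratio of mir-22 to mir-192 FPKM, which does not depend on the total, ran from 0.867 to 1.43 at 10 months, with a median of 1.06, and from 0.529 to 1.08 at 6 months, with a median of 0.831. By FPKM mir-22 was first at 10 months in 23 of 24 males and 16 of 24 females, and by CPM in 23 of 24 males and 21 of 24 females, so the gap between the sexes in this count depended on the scale. The exception among the males was replicate 3 of the WT males of the Q50 line, which was left out of the fits. At 6 months it was first in 1 of 24 males and 1 of 24 females by FPKM, and in 6 of 24 males and 4 of 24 females by CPM. At 10 months the median ratio was 1.12 in males against 1.01 in females, and at 6 months 0.860 in males against 0.791 in females. The ratio holds the change of both hairpins. In the edgeR fit of 10 against 6 months, mir-192 had a log2 difference of -0.29 ± 0.04 (SE, adjusted p = 1.66e-09, lower) on the TMM scale, on which mir-22 was higher. For males against females, mir-192 had -0.08 ± 0.03 at 10 months (edgeR adjusted p = 0.00696, lower in males). At 6 months it had -0.00035 ± 0.05 (edgeR adjusted p = 0.997). The gap between the sexes in the ratio at 10 months thus holds a difference of mir-192 too.

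**Figure D1:**
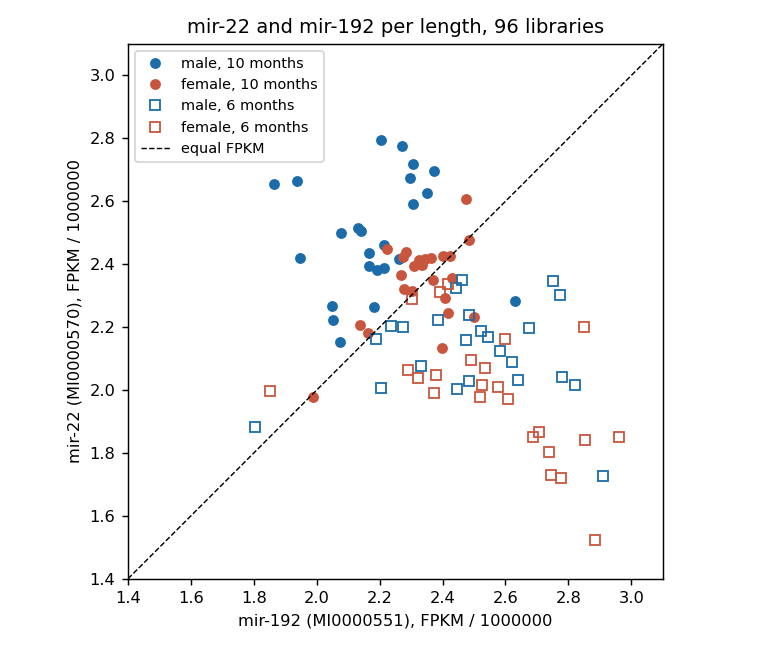
FPKM of mir-22 (vertical axis) against FPKM of mir-192 (horizontal axis), both divided by the factor on the axis label, in each of the 96 libraries, with a dashed line of equal FPKM. Points above the line are libraries in which mir-22 was first: 39 of 48 at 10 months (filled circles) and 2 of 48 at 6 months (open squares).

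At 10 months the group levels were as follows, in CPM of the column total, replicates in order. Livers of WT males of the Q20 line at 10 months held 231406, 226323, 252367 and 211142 CPM, against 247828, 229236, 202633 and 213186 CPM in females. In WT mice of the Q50 line at 10 months, mir-22 had 246287, 233719, 216751 and 238061 CPM in males, against 232456, 230527, 230070.5 and 229807 CPM in females. These WT females lay within a narrow band, inside the range of the males. The 10-month Q20 males had 265594, 229478, 226887 and 238845 CPM, against 229511, 235212, 220432 and 207286 CPM in the females. Livers of Q50 males at 10 months held 227511, 258391, 204377 and 263657 CPM, against 224815, 223960.3, 223121 and 219759.5 CPM in females. The Q50 males had the widest spread at this age, with 3 livers above and 1 below all 4 females. In Q92 mice at 10 months, mir-22 had 253199, 214954, 249473 and 254171 CPM in males, against 187764, 209703, 231827 and 217742 CPM in females. The 10-month Q140 males had 256159.7, 215293, 237316 and 230000.4 CPM, against 211983, 230440.1, 227564 and 227850.3 CPM in the females. In both of these lines the highest male lay above all females of the line, and males and females overlapped in every genotype at 10 months. In Q92 the overlap rested on male replicate 2 (214954 CPM), and in WT of the Q50 line on male replicate 3 (216751 CPM). Both were left out of the fits, and the other males of these groups lay above all females of their group.

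The 6-month livers held less on this scale. Livers of WT males of the Q20 line at 6 months held 193929.5, 205497, 190417 and 208842 CPM, against 189762, 191661, 194567 and 195956 CPM in females. In WT mice of the Q50 line at 6 months, mir-22 had 212658, 211177, 220811 and 190554 CPM in males, against 175839.8, 177201, 205447 and 175834 CPM in females. In this line, 3 of the WT females lay below all 4 males. The 6-month Q20 males had 205149, 223154, 201668 and 209157 CPM, against 189144, 193564, 190817 and 187810.1 CPM in the females. All 4 Q20 males lay above all 4 Q20 females. Livers of Q50 males at 6 months held 223054, 197123, 207786 and 209200.2 CPM, against 208912, 164358, 219497 and 171249 CPM in females. In Q92 mice at 6 months, mir-22 had 192673, 218556, 178802 and 198390.1 CPM in males, against 196723, 144835, 199027 and 163490.2 CPM in females. The Q92 females included the lowest library of the series. The 6-month Q140 males had 164077, 192903, 206080.4 and 191589.8 CPM, against 217402, 174866, 222044 and 187151 CPM in the females. Q140 was the only genotype at 6 months in which the mean of males was not above that of females.

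**Figure D2:**
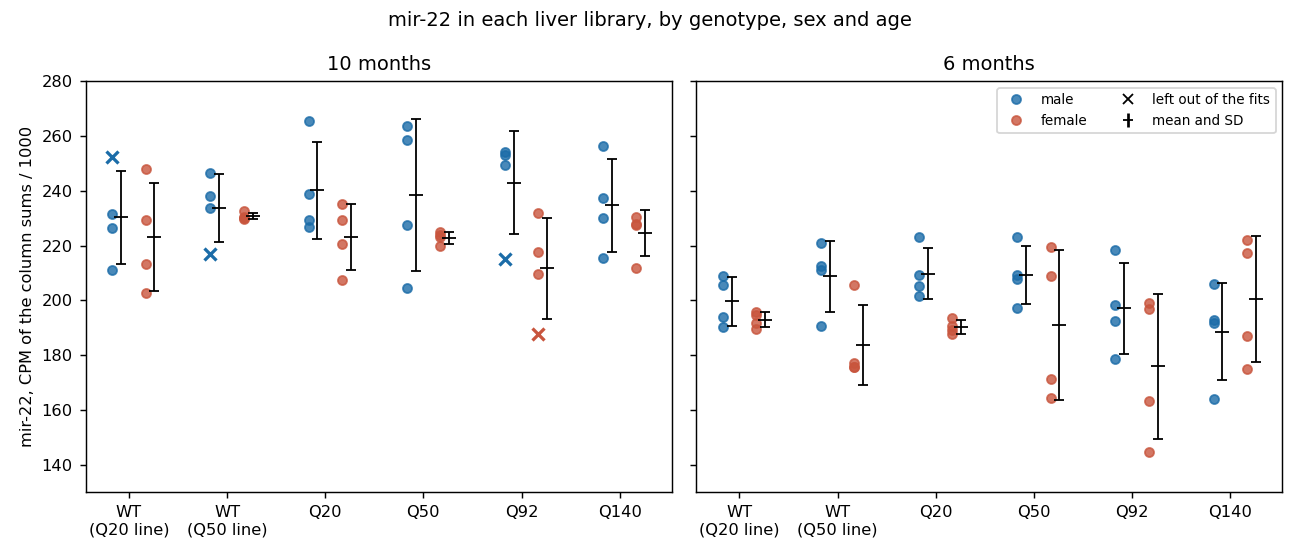
CPM of mir-22 from the column total, in units of 1000 (vertical axis, which does not start at 0) in each library, by genotype and line (horizontal axis), with 10 months in the left panel and 6 months in the right, males left of females. Black bars give mean and SD of 4 mice and crosses mark the 4 libraries left out of the fits. The group means run from 176019 to 242949 CPM and those of 10 months lie above those of 6 months.

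In order of their mean, the 24 groups ran from Q92 males at 10 months with 242949 ± 18773 CPM down to Q92 females at 6 months with 176019 ± 26378 CPM (SD, n = 4 each), a ratio of 1.38. The 12 groups of 10 months held the first 12 places. After the Q92 males came the 10-month males of Q20 with 240201 ± 17691, Q50 with 238484 ± 27771, Q140 with 234692 ± 16991 and WT of the Q50 line with 233704 ± 12446 CPM. Next were WT females of the Q50 line with 230715 ± 1198 and WT males of the Q20 line with 230309 ± 17039 CPM. The other 10-month females followed, with 224459 ± 8418 CPM in Q140, 223221 ± 19717 in WT of the Q20 line, 223110 ± 12179 in Q20, 222914 ± 2214 in Q50 and 211759 ± 18426 in Q92. No neighbours in the order differed beyond their spread. In all 23 steps the gap of the means was smaller than the larger SD and the libraries overlapped, and the largest gap, 11155 CPM, lay between the 10-month females of Q50 and of Q92. Sorting puts close means side by side, so these steps do not show whether groups further apart differed. Over all 276 pairs of groups, the gap was smaller than the larger SD in 117.

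The first of the 6-month groups were males of Q20 with 209782 ± 9425, of Q50 with 209291 ± 10642 and WT males of the Q50 line with 208800 ± 12880.3 CPM. Below them stood Q140 females with 200366 ± 22986, WT males of the Q20 line with 199671 ± 8882 and Q92 males with 197105 ± 16497 CPM. The last places before the Q92 females were held by WT females of the Q20 line with 192987 ± 2797, Q50 females with 191004 ± 27281, Q20 females with 190334 ± 2480.2, Q140 males with 188662 ± 17648 and WT females of the Q50 line with 183580 ± 14592 CPM. The mean of males was above that of females in 11 of 12 pairs of the same genotype and age, and that of 10 months was above that of 6 months in 12 of 12 pairs of the same genotype and sex.

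With mir-192 left out of the total, which left a median of 78.9% of the counts, all levels were higher by construction and the order changed in part. The 10-month means were 282180 ± 18292 in males and 284056 ± 25939 in females for WT of the Q20 line, and 294541 ± 11271 in males and 290820 ± 2299 in females for WT of the Q50 line (CPM, SD, n = 4 each). They were 298728 ± 21696 in males and 281304 ± 19455 in females for Q20, 296997 ± 37821 in males and 281633 ± 3895 in females for Q50, 301916 ± 24122 in males and 263806 ± 27150.4 in females for Q92, and 289354 ± 26215 in males and 284959 ± 8684 in females for Q140. Here males averaged less than females in WT of the Q20 line, in contrast to the first scale. The 6-month means were 257571 ± 12653 in males and 241864 ± 9788 in females for WT of the Q20 line, and 265081 ± 19574 in males and 242633 ± 16752 in females for WT of the Q50 line. They were 268216 ± 11684 in males and 243375 ± 3324 in females for Q20, 268279 ± 19719 in males and 250685 ± 33368 in females for Q50, 252327 ± 31836 in males and 230412 ± 29636 in females for Q92, and 248942 ± 19317 in males and 258602 ± 23241 in females for Q140. The order again ran from the Q92 males at 10 months to the Q92 females at 6 months, with a ratio of 1.31. The 10-month groups held 11 of the first 12 places on this scale, since the mean of the Q92 females was below those of Q50, Q20 and WT males of the Q50 line at 6 months. In all 23 steps the gap was again smaller than the larger SD, and over all 276 pairs of groups it was so in 152. The mean of males was above that of females in 10 of 12 pairs and that of 10 months above that of 6 months in 12 of 12.

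The comparison of 10 with 6 months asks how mir-22 differs with age. On the first scale the libraries ran from 187764 to 265594 CPM at 10 months with a median of 229495, against 144835 to 223154 with a median of 195262 at 6 months. The mean was 229710 ± 16578 CPM at 10 months and 195633 ± 17638 at 6 months (SD, n = 48 each), a ratio of 1.17. At 10 months 33 of 48 libraries lay above the highest 6-month library, and the others lay within the 6-month range. With mir-192 left out of the total the means were 287525 ± 21251 and 252332 ± 21724 CPM, a ratio of 1.14, and 11 of 48 libraries lay above the highest of 6 months. Each of the 44 fitted 10-month mice was above the 6-month mean of its sex on the first scale, and 42 of 44 were on the second.

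The edgeR fit, which scales libraries by the trimmed mean of M-values (TMM), gave a smaller difference. mir-22 was 1.09-fold higher at 10 months (95% interval 1.04 to 1.13), a log2 difference of 0.12 ± 0.03 (SE, adjusted p = 0.000291, n = 44 and 48). Of the 408 hairpins tested, 239 or 58.6% were called, 129 higher and 110 lower. With mir-22 itself counted, 299 had an absolute difference at least as large as that of mir-22. The size depended on the scaling. With the column totals it was 0.24, with mir-192 left out of the total 0.20, with mir-22 itself left out of the total 0.30, and with DESeq2 size factors 0.11 on the log2 scale, called in each. The median of all hairpins moved too, to 0.13, 0.09, 0.20 and 0.00, against 0.01 under TMM. Relative to that median, mir-22 was higher by 0.105 to 0.11 under the 5 scalings. A change of scaling shifts all hairpins by nearly the same amount, so this distance stays close by construction. Mice of the 2 ages were in different libraries, and a lane tag that occurs at both ages is not known to be the same run, so age cannot be told apart from the set of libraries.

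**Figure D3:**
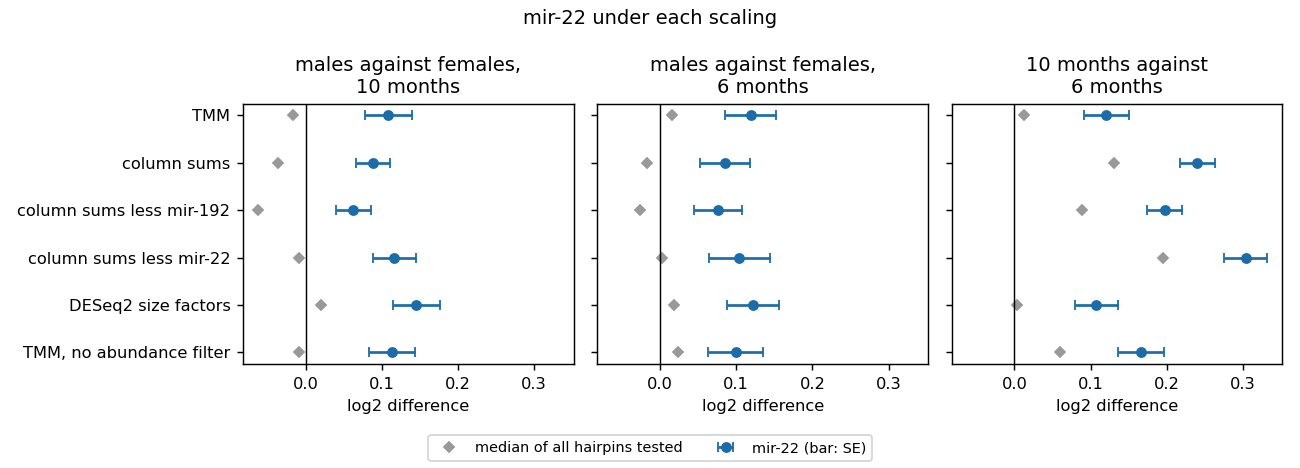
Log2 difference of mir-22 (circles, with SE) and the median of all hairpins tested (diamonds) for males against females at 10 months, at 6 months, and for 10 against 6 months, under 6 ways to scale or filter the counts. For age the circles run from 0.11 to 0.30 and the diamonds move with them. For sex every circle lies above 0.

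The comparison of males with females was possible within each age, since every genotype had 4 mice of each sex. At 10 months the male libraries ran from 204377 to 265594 CPM with a median of 235517, against 187764 to 247828 with a median of 226189 in females. At 6 months they ran from 164077 to 223154 CPM with a median of 205323 in males, against 144835 to 222044 with a median of 190290 in females. The ranges overlapped widely at both ages. At 10 months the mean was 236723 ± 17377 CPM in males, against 222696 ± 12531 CPM in females. At 6 months males averaged 202219 ± 14079 CPM, against 189048 ± 18628 CPM in females (SD, n = 24 per sex and age). On the TMM scale, 17 of 21 fitted males at 10 months and 21 of 24 at 6 months were above the mean of the females of their age.

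mir-22 was higher in males at both ages by edgeR. At 10 months the difference was 1.08-fold (95% interval 1.03 to 1.13), or 0.11 ± 0.03 on the log2 scale (SE, adjusted p = 0.00305, 21 males and 23 females). At 6 months it was 1.09-fold (1.04 to 1.14), or 0.12 ± 0.03 (adjusted p = 0.00474, 24 and 24). Differences between the sexes were common among all hairpins, with 173 of 383 or 45.2% called at 10 months and 143 of 374 or 38.2% at 6 months. With mir-22 itself counted, 263 hairpins at 10 months and 240 at 6 months had a difference at least as large in size as that of mir-22. With all libraries kept it was 0.10 at 10 months (edgeR adjusted p = 0.0157). The change of the sex difference with age was -0.02 ± 0.06 (log2, 10 minus 6 months, edgeR adjusted p = 0.921). For that change edgeR called 0 of 408 hairpins (0%), 53 had an unadjusted p under 0.05, and DESeq2 called 2.

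The 10-month call held under the alternatives tried. The 6-month call held under the other methods of scaling, in part close to the threshold. It was lost without the filter on low hairpins, with some single libraries left out and with some reference libraries for TMM. With the column totals the log2 difference was 0.09 at 10 months (edgeR adjusted p = 0.000963) and 0.08 at 6 months (0.036), and with mir-192 left out of the total it was 0.06 (0.0233) and 0.08 (0.0485). Without the filter on low hairpins the 6-month value was 0.10 with an edgeR adjusted p of 0.053. Leaving out 1 library ended the 6-month call in 13 of 48 cases. The value was then 0.08 without Q20 female replicate 1, Q20 male replicate 3, Q50 male replicate 3, Q92 female replicate 2 or replicate 1 of the WT females of the Q50 line. It was 0.07 without Q20 female replicate 2, 3 or 4, Q92 female replicate 3, Q92 male replicate 1 or replicate 3 of the WT females of the Q20 line. It was 0.06 without Q50 female replicate 2 or Q92 male replicate 4. The edgeR adjusted p of these 13 ran from 0.0686 to 0.123. Leaving out 1 library changed the library that TMM takes as its reference, Q20 male replicate 3, in 20 of the 48 cases, and the 13 that lost the call were among these 20. In a check chosen after seeing the data, that reference was held fixed, and 47 of 47 such fits kept the call, with 0.11 to 0.13. With each of the 48 libraries as the reference in turn the difference was positive in 48 and called in 41, with a range of 0.07 to 0.12. At 10 months it was called with all 44 references, with 0.08 to 0.14, and with each of 44 libraries left out.

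The lane tags differed in level. On the TMM scale mir-22 averaged 239088 ± 21735 CPM in L5 (n = 12), 220387 ± 15297 in L6 (n = 24) and 252514 ± 23836 in L7 (n = 8) at 10 months. At 6 months it averaged 191936 ± 18846 in L6 (n = 18), 193556 ± 15638 in L7 (n = 27) and 239498 ± 17490 in L8 (n = 3, SD throughout). In the 5 tags by age that held at least 4 libraries of each sex, the mean of males was above that of females. The log2 difference was 0.16 in L5 (5 males and 7 females), 0.05 in L6 (12 and 12) and 0.20 in L7 (4 and 4) at 10 months. It was 0.16 in L6 (8 and 10) and 0.09 in L7 (14 and 13) at 6 months. The tag L8 held 2 males and 1 female there, too few for a value. The genotype comparisons were fitted with the tag as a covariate and, as an alternative, without it, and all 8 Q20 mice of 6 months carried L7. The group levels in CPM of the column total were not adjusted for the tag. Females of Q50 and Q92 at 10 months and WT females of the Q50 line at 6 months all carried L6. WT females of the Q20 line at 6 months all carried L7. In that CPM the 6-month Q92 females had 196723 and 199027 in L7, against 144835 and 163490.2 in L6. Those of Q140 had 217402 and 187151 in L7, against 174866 and 222044 in L6.

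**Figure D4:**
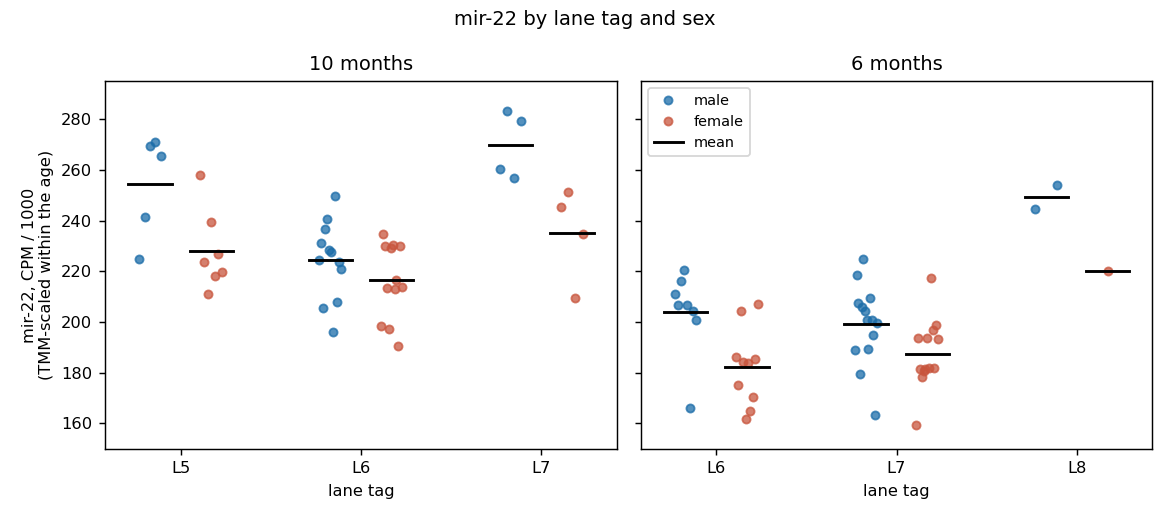
CPM of mir-22, TMM-scaled within each age, in units of 1000 (vertical axis, which does not start at 0), by lane tag (horizontal axis), males left of females, for the 92 fitted libraries. Each point is a library and each bar a mean. The mean of males is above that of females in the 5 tags by age with at least 4 libraries of each sex (L8 at 6 months holds 2 males and 1 female), and L7 at 10 months and L8 at 6 months lie highest.

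The knock-in lines were compared with the controls to ask whether mir-22 goes with the CAG repeat. On the TMM scale at 10 months, Q50 livers ran from 196040 to 271119 CPM with a median of 228205 (n = 8), Q92 from 190714 to 279216 with a median of 239869 (n = 6) and Q140 from 207778 to 265359 with a median of 222270 (n = 8). Controls ran from 198372 to 257912 in WT of the Q20 line (n = 7), from 218155 to 260147 in WT of the Q50 line (n = 7) and from 197224 to 283371 in Q20 (n = 8). Each line overlapped with the controls, and none stood outside them as a group. At 6 months Q50 ran from 161782 to 244628 CPM, Q92 from 163290 to 253849 and Q140 from 166170 to 206937, against 159390 to 216144 in WT of the Q20 line, 175177 to 220397 in WT of the Q50 line and 180690 to 224997 in Q20 (n = 8 each).

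No line differed from the controls in mir-22 by edgeR at either age. At 10 months the log2 difference was 0.04 ± 0.04 (SE) for Q50 (95% interval -0.05 to 0.13, adjusted p = 1), 0.03 ± 0.05 for Q92 (-0.06 to 0.13, adjusted p = 0.784) and -0.06 ± 0.04 for Q140 (-0.15 to 0.02, adjusted p = 0.509). Over all hairpins at 10 months, edgeR called 0 of 383 (0%) for Q50, 4 (1.04%) for Q92 and 5 (1.31%) for Q140. For Q50, 9 had an unadjusted p under 0.05 and DESeq2 called 0. At 6 months the difference of mir-22 was -0.02 ± 0.05 for Q50 (-0.12 to 0.08, adjusted p = 0.998), -0.07 ± 0.05 for Q92 (-0.17 to 0.02, adjusted p = 0.722) and -0.00047 ± 0.05 for Q140 (-0.10 to 0.10, adjusted p = 0.996). At that age 0 of 374 (0%) were called for Q50, 1 (0.267%) for Q92 and 0 (0%) for Q140. For Q50, 7 had an unadjusted p under 0.05 by edgeR, for Q140 5 had an unadjusted p under 0.05 by edgeR and DESeq2 called 0 for each. With all libraries kept, the Q92 difference at 10 months was -0.06 (adjusted p = 0.598), on the other side of 0.

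The intervals bound what these samples could show. For the 6 comparisons of a line with controls they reached no further than 1.09-fold higher, for Q92 at 10 months, and 0.889 of the control level, for Q92 at 6 months. The 3 comparisons share their controls within an age. With both ages combined as a sum of Z, mir-22 had a Z of 0.348 for Q50, -0.558 for Q92 and -1.03 for Q140, with adjusted p of 1, 0.943 and 0.889 from the edgeR fits. Of 366 hairpins, 0 (0%), 1 (0.273%) and 0 (0%) were called, 10 and 26 had an unadjusted p under 0.05 for Q50 and Q140, and DESeq2 called 0 for both.

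As a number, CAG length went with no change of mir-22 that passed the test. The slope per 100 repeats was -0.03 ± 0.03 on the log2 scale at 10 months (SE, 95% interval -0.10 to 0.03, edgeR adjusted p = 0.611) and -0.02 ± 0.03 at 6 months (-0.09 to 0.05, edgeR adjusted p = 0.995). Over all hairpins edgeR called 8 of 383 (2.09%) at 10 months and 0 of 374 (0%) at 6 months, where 8 had an unadjusted p under 0.05 and DESeq2 called 0. Combined over the ages, the Z was -1.10 (adjusted p = 0.85), with 2 of 366 hairpins called (0.546%). The slope at 10 months minus that at 6 months was -0.05 ± 0.06 (edgeR adjusted p = 0.786), with 0 of 408 called (0%), 44 at an unadjusted p under 0.05 and 0 by DESeq2. Each length came from its own mouse line.

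Against WT mice of the same line, Q20 had a log2 difference of 0.04 ± 0.05 at 10 months (SE, edgeR adjusted p = 0.898) and 0.03 ± 0.06 at 6 months (0.908). Q50 had 0.0023 ± 0.05 at 10 months (edgeR adjusted p = 0.984) and -0.04 ± 0.06 at 6 months (0.992). In each of these 4 comparisons edgeR called 0 hairpins of 383 or 374 (0%) and so did DESeq2. An unadjusted p under 0.05 was found by edgeR for 39 and 24 hairpins in Q20, and for 17 and 1 in Q50 (10 and 6 months).

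**Figure D5:**
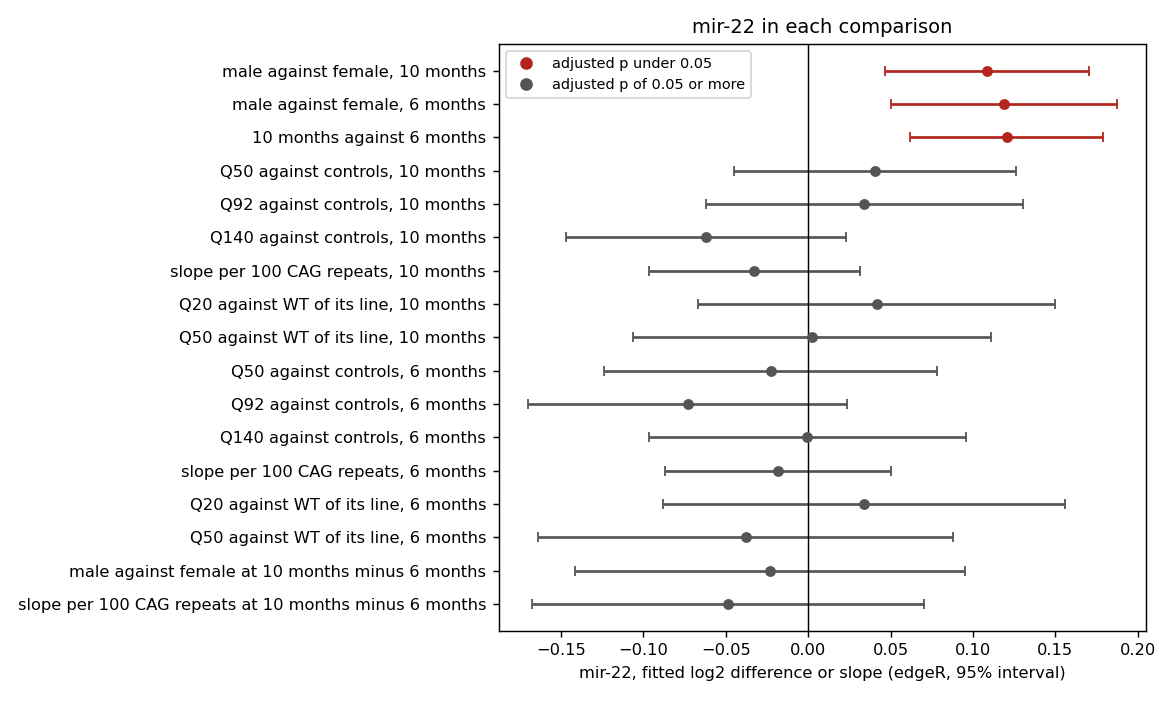
Fitted log2 difference or slope of mir-22 (horizontal axis, edgeR, with 95% intervals) in 17 comparisons. The differences of males against females at 10 months (0.11) and 6 months (0.12) and of 10 against 6 months (0.12) are past the adjusted threshold (red), and each interval of the knock-in and CAG comparisons spans 0 (grey).

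Among the 130 other hairpins with a mean of at least 100 CPM, the 5 whose group means went most with those of mir-22 over the 24 groups were MI0000621 (Pearson r = 0.788), MI0005549 (0.733), MI0005518 (0.731), MI0000235 (0.721) and MI0000577 (0.681). The 3 that went most against it were MI0000223 (r = -0.770), MI0000706 (-0.728) and MI0000566 (-0.718). The median over the 130 was -0.06. These correlations are of log2 CPM after TMM over all 96 libraries. They describe the groups, which share the 2 ages, the sexes and the scaling, and the ones named are the extremes of 130. Within groups, over the 96 libraries after the group means were taken off, the same hairpins had r of -0.03, 0.39, 0.37, 0.24 and 0.31, and of -0.65, 0.01 and -0.05. MI0000223 was thus against mir-22 both between and within groups, and MI0000621 was with it only between groups. mir-192 had r of -0.41 over the groups and 0.52 within them. The values within groups include the libraries left out of the fits and were not adjusted for the lane tag. MI0005518, MI0000577, MI0000566, MI0000706 and MI0000223 hold fractional counts, MI0005518 in 25 of the 96 libraries, MI0000706 in 95 and the others in all 96, and are uncertain for that reason.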

How the data were processed

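Small RNA from 96 mouse livers was sequenced. By the study's methods, clipped reads were aligned to mm10 with STAR and counted with HTSeq. The submitters' processing notes name CASAVA 1.8.2. The authors deposited estimated counts per hairpin, some not whole, and FPKM values. FPKM were used only for levels per length and to recover hairpin lengths. No source used here names the release of the hairpin annotation.

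Groups came from the labels. Estimated counts were rounded, since whole counts had been assumed in the design. Libraries whose standardized connectivity within their age was below -5 (Z.k, robust) did not enter the fits, which took out 4 of the 10-month and 0 of the 6-month libraries. edgeR 4.0.16 in R 4.3.3 (quasi-likelihood F test, TMM, Benjamini-Hochberg, threshold 0.05) tested the hairpins that reached 1 CPM in 8 or more libraries. Within an age, covariates were sex and lane tag, and for males against females the genotype with its line and the lane tag. For age they were sex and the genotype with its line, without the lane tag. The changes with age were also fitted without the lane tag. That of the sex difference had the genotype with its line as covariate, and that of the CAG slope had sex. Alternatives were other scalings, no filter, DESeq2 1.42.0, all libraries, WT only as controls, no lane tag, a replicate block and each library left out. The study's own test, DESeq2 on outlier-replaced counts, was used without the replacement. No pair of libraries in a group was identical in 144 pairs, with a chi-square per degree of freedom of at least 18.3. The tests were also run on simulated counts without a lane effect. The change planted in mir-22 there was larger than the differences of the TMM fits, so changes of their size were not checked.

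The hairpin and the lists were chosen with earlier results of these data known. The named hairpins are mir-22, mir-192, the 10 most abundant (described by the pair at the top and the third), and the 5 most and 3 least alike in group means. Lists of cell type markers and of metabolic microRNAs need names, of which 0 were matched to IDs in the tables used here, so they were not analysed here and the tissue label was not checked against markers.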

Additional observations from a re-analysis of the deposited data

Results flagged for a closer look

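In 5 of 48 sets of 4 libraries (24 groups on 2 scales), 1 library lay far from the other 3 by Dixon's ratio at the 95% level, and chance gives about 1 in 20. The 2 scales share their libraries and mir-22 counts, so the 48 sets are not independent. On the scale of the column total, Q140 female replicate 1 at 10 months was low, at 211983 CPM. Q92 male replicate 2 at 10 months was low there too, at 214954 CPM, and is among the libraries left out of the fits. WT of the Q50 line female replicate 3 at 6 months was high, at 205447 CPM. With mir-192 left out of the total, Q20 male replicate 2 at 6 months was high, at 285725 CPM. On that scale WT of the Q20 line female replicate 1 at 6 months was low, at 227200 CPM. The causes were not tested.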

How the results depend on the processing

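The calls of mir-22 for age and for males against females at 10 months held under each alternative run. The 6-month call for sex was lost without the abundance filter (0.10, edgeR adjusted p = 0.053), and over single libraries left out the log2 value ran from 0.064 to 0.133 (edgeR adjusted p from 0.00102 to 0.123). With another TMM reference library, an alternative chosen after seeing the data, it was lost in 7 of 47 cases, with 0.078 (Q140 female replicate 4), 0.066 (Q140 male replicate 2), 0.080 (Q50 female replicate 3), 0.066 (Q92 male replicate 3), 0.082 and 0.071 (replicates 1 and 2 of the WT females of the Q20 line) and 0.080 (replicate 1 of the WT males of the Q50 line). The other results were uncalled throughout, and these changed sign on the log2 scale, for causes that were not tested. Q140 at 6 months was 0.0077 with column totals, 0.020 without mir-192, 0.011 without mir-22 in the total, 0.0097 with DESeq2 size factors, 0.0073 without the filter, 0.0097 by DESeq2 and 0.0037 with WT only as controls. With column totals, Q20 against its WT at 6 months was -0.015, Q50 against its WT at 10 months was -0.0019, and the change of the CAG slope with age was 0.036. That change was 0.015 without mir-192 in the total. Without mir-22 in the total the same 3 were -0.017, -6.8e-05 and 0.042. The change of the sex difference with age was 0.024 with DESeq2 size factors, 0.024 by DESeq2 and 0.033 with all libraries, where Q92 at 10 months was -0.058. Without the lane tag, Q50 was 0.061 against controls and 0.047 against its WT at 6 months, and -0.0061 and -0.0552 at 10 months. Over single libraries left out, the ranges that crossed 0 were -0.0205 to 0.0481 for Q92 at 10 months, -0.0700 to 0.0031 for Q50 at 6 months, -0.0209 to 0.0326 for Q140 at 6 months, -0.0330 to 0.0021 for the CAG slope at 6 months, -0.0213 to 0.0520 for Q50 against its WT at 10 months and -0.0372 to 0.0266 for the change of the sex difference with age. The combined Z ran from -0.291 to 0.902 for Q50 and from -1.35 to 0.0311 for Q92. Leaving mir-192 out of the total moved all 24 group levels up by more than their SD, by construction.

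The labels give the groups the same replicate numbers, but same-numbered libraries did not deviate together, with a mean correlation of -0.00367 at 10 months and -0.00868 at 6 months. At 10 months 14 of 44 and at 6 months 9 of 48 libraries correlated best with their own number. With a replicate block, the male against female difference was 0.10 at 10 months and 0.12 at 6 months, and the age difference 0.12, with 176, 140 and 235 hairpins called. The block changed no call of mir-22.

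The Q140 comparison at 10 months called 5 hairpins, against 10 by DESeq2, 8 with column totals, 8 without mir-192 and 8 without mir-22 in the total, 3 with all libraries and 0 with WT only as controls. For Q92 at 10 months it was 4, against 8 by DESeq2, 7 with the block and 1 with WT only. For the CAG slope at 10 months it was 8, against 18 with column totals, 15 without mir-22 and 12 without mir-192 in the total, 17 by DESeq2, 11 without the lane tag and 4 without the filter. Q92 called 1 at 6 months, against 0 with the block. The ages combined called 1 for Q92, against 4 by DESeq2, 2 without the lane tag and 0 with all libraries, and 2 for the CAG slope, against 1 without the lane tag and 1 with all libraries. The change with age called 0 for the sex difference, against 4 with DESeq2 size factors and 2 by DESeq2, and 0 for the CAG slope, against 4 without the filter. Counting error, with reads taken as independent, was at most 0.140% of the level of mir-22.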
